A study of Mus musculus with 24 samples.

Results

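The 40 genes described here make up the machinery of DNA replication and its supply lines. They were taken by gene symbol from the 54957 gene rows of the count table, and all 40 were found, each on 1 row. They comprise the 6 subunits of the MCM helicase, 8 licensing and initiation factors, 6 polymerase and primase subunits, 6 genes of the sliding clamp and its loader, 5 genes of strand protection and maturation, 5 genes of nucleotide supply and 4 genes of chromatin and histone supply. All 40 had a count in at least 1 library of every group, and all 40 passed the low-count filter of each comparison.

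RNA was measured in T cells that had entered B16F10-OVA tumours (24 libraries), a mouse melanoma line carrying the model antigen ovalbumin. Mice received 200 micrograms of isotype control antibody, antibody to PD-1 (an inhibitory receptor of activated T cells) or antibody to JAML (a junctional adhesion molecule of leukocytes), and tumours were taken 1 day later. Regulatory T cells (Treg, CD4+FOXP3+) and T cells of the CD8+ lineage were sorted from each of the 3 treatments, which gave 6 groups of 4 libraries; every mouse carried the tumour and received an antibody, so there was no untreated group. Each library came from fewer than 400 cells, and whether replicates came from different animals is not stated. The p-values therefore reflect only how far replicate libraries differed, which may be technical. Mouse strain, sex and age were not known here.

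Before a cell copies its genome, the MCM helicase is loaded onto origins by Cdc6 and Cdt1, and is switched on when Cdc45 and the GINS complex join it. Polymerases then copy both strands while PCNA, a ring loaded by the RFC complex, tethers them to DNA, the RPA complex coats single-stranded DNA, and ribonucleotide reductase, thymidylate synthase, thymidine kinase and dUTPase keep the nucleotide pools filled. These genes are low in resting T cells and are switched on together as activated cells enter the cycle, largely through E2F transcription factors that act at promoters.

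The promoters of these genes were examined for the E2F word, because it is the sequence through which the group is known to be switched on together. RefSeq windows of 300 bases (250 before and 50 after the start, build GRCm38.p6) were matched for 33 of the 40 genes. The words TTTCCCGC, TTTCGCGC, TTTGCCGC and TTTGGCGC were searched on both strands. Some genes had more than 1 window, and a gene was counted if any of its windows held a word. By this rule 12 of the 33 genes held at least 1 word (36.4%). The same rule gave 704 of 27025 mouse genes with a window (2.6%) and 425 of 8625 tested genes with a window (4.93%). Mcm7, Lig1 and Uhrf1 also had windows without a word. By role, 4 of 5 MCM genes with a window held a word (Mcm3, Mcm5, Mcm6 and Mcm7), as did 3 of 5 licensing genes (Cdc6, Cdt1 and Gins3), 2 of 4 polymerase genes (Pola1 and Pold1) and 0 of 5 nucleotide supply genes. The 250 bases before the RefSeq start of 3 MCM genes and of Cdc6 are shown 5′ to 3′ on the strand of the gene. Words are in capitals, and words that overlap on the 2 strands run into a single capital stretch. For Mcm7 the window with the most words is shown. GENCODE places the starts of Cdc6 (98907801) and Mcm7 (138172422) further upstream, so by GENCODE both stretches lie within the gene. Mcm5 lies at chr8:75109259-75109508 on the plus strand, Mcm6 at chr1:128359706-128359955 on the minus strand, Mcm7 at chr5:138171884-138172133 on the minus strand and Cdc6 at chr11:98907901-98908150 on the plus strand.
Mcm5: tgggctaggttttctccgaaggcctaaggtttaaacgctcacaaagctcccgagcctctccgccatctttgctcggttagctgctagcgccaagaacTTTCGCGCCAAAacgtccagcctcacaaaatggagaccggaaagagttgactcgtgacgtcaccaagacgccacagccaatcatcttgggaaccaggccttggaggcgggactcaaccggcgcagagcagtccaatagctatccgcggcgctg
Mcm6: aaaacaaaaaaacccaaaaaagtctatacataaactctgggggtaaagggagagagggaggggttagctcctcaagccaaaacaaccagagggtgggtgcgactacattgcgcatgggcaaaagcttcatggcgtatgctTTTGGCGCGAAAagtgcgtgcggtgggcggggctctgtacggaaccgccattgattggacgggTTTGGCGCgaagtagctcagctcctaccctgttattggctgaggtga
Mcm7: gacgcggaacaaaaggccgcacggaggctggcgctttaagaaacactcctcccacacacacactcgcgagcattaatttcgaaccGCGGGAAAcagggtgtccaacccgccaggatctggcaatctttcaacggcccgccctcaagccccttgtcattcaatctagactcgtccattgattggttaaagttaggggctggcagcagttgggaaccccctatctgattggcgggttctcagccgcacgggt
Cdc6: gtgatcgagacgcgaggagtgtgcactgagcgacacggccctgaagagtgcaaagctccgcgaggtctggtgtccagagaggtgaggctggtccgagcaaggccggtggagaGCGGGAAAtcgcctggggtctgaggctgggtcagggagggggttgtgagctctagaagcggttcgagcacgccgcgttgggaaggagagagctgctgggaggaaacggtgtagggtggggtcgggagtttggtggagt

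The pentamer CCAAT is the NF-Y binding core found in many cell-cycle promoters. It stood on either strand in a window of 21 of 33 genes (63.6%), against 41.1% of mouse genes and 43.9% of tested genes. The word TTTGAA, the cell-cycle homology region of promoters active late in the cycle, stood in 4 of 33 (12.1%), against 20.2% and 15%. Rpa2, which encodes the middle subunit of RPA and differed most regularly between the cell populations below, had no E2F word as spelled here and 3 CCAAT pentamers before its start at chr4:132768110-132768359 on the plus strand, shown in capitals (as ATTGG where the match is on the other strand).
Rpa2: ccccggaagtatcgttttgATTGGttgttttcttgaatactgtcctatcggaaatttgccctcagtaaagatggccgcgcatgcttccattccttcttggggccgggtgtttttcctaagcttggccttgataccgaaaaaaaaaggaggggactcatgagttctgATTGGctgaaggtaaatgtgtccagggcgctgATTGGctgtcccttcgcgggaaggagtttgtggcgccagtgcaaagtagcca
The words are letters in a window and not measured binding sites. Only exact spellings were searched, so a window without a word may hold an E2F site spelled otherwise.

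Total counts were between 11170918 and 22556460 per library. Defining markers fitted the labels in all 24 libraries, with a summed Cd8a and Cd8b1 level of 1775 to 3005 CPM in CD8 libraries against 12.3 to 48.3 in Treg libraries (CPM, counts scaled to the TMM-adjusted library size). Macrophage markers were high in Treg anti-PD-1 libraries 1 and 4 (773 and 1118 CPM summed over 8 genes) and in CD8 anti-JAML library 2 (456 CPM), against 5.55 to 148 in the others, and mitochondrial transcripts took 6.89% of CD8 anti-JAML library 4, against 1.20% to 4.0% elsewhere. The number of genes detected ran from 12643 to 14378 in Treg isotype libraries, from 14031 to 15162 in Treg anti-PD-1 libraries and from 13927 to 14390 in CD8 isotype libraries. In such bulk samples, fewer cells in S phase and less RNA per cell cannot be told apart.

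The share of all counts that fell in the 40 genes ordered the 6 groups. In replicate order it was 0.466%, 0.275%, 0.238% and 0.47% in the Treg isotype libraries and 0.818%, 0.809%, 0.723% and 0.767% in the CD8 isotype libraries, so every CD8 isotype library stood above every Treg isotype library. The means were 0.362% ± 0.123 (SD, n = 4) in Treg isotype, 0.453% ± 0.0783 in Treg anti-JAML, 0.666% ± 0.102 in Treg anti-PD-1, 0.726% ± 0.0614 in CD8 anti-JAML, 0.779% ± 0.0434 in CD8 isotype and 0.92% ± 0.153 in CD8 anti-PD-1. Neighbours in this order overlapped, apart from Treg anti-JAML (0.375% to 0.55%) and Treg anti-PD-1 (0.566% to 0.757%). Gene by gene, mean CPM was lowest in Treg isotype for 32 of the 40 genes and in Treg anti-JAML for the other 8, and it was highest in CD8 anti-PD-1 for 22, in CD8 isotype for 9, in Treg anti-PD-1 for 7 and in CD8 anti-JAML for 2.

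**Figure D1:**
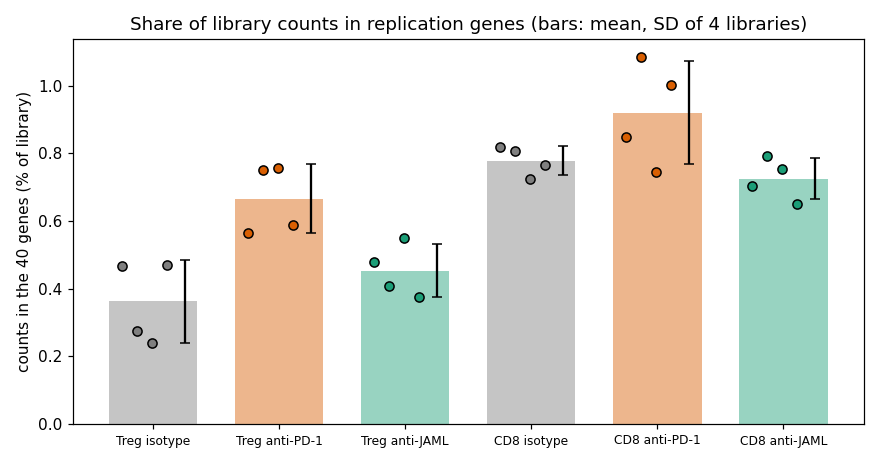
Share of each library's counts in the 40 replication genes (y axis, percent of library). Bars are means and error bars the SD of 4 libraries, and dots are libraries; Treg isotype has the lowest mean (0.362%) and CD8 anti-PD-1 the highest (0.92%).

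Transcript levels within the machinery differed by over 2 orders of magnitude only with Fen1 included. Its level is uncertain, because 84.2% of its exon bases overlap exons on the opposite strand. The deposited TPM scale divides by a length per gene. That length may differ from the length of the transcript expressed, so the order of genes is approximate. On this scale the highest mean over the 24 libraries was that of Pcna (478 ± 156 TPM, SD, n = 24). Dut, the dUTPase (434 ± 243), Rrm2, the small subunit of ribonucleotide reductase (399 ± 178), and Rpa3, the smallest subunit of RPA (258 ± 95.4), followed. Pcna, Dut and Rrm2 differed by less than their spread over libraries, which includes differences between groups. The lowest levels were those of Pole, the catalytic subunit of the leading-strand polymerase (4.95 ± 2.46 TPM), Chaf1a, the large subunit of the histone chaperone CAF-1 (4.82 ± 5.18), and Fen1, the flap nuclease of Okazaki fragments (2.21 ± 1.56).

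Within role groups transcript levels were unequal, also among the MCM subunits, which act in fixed ratios as proteins. Mcm6 was the highest MCM subunit (242 ± 122 TPM) and Mcm2 the lowest (53.9 ± 39.3). Among licensing factors Gins4 was highest (186 ± 55.1) and Mcm10 lowest (6.09 ± 5.10), and among polymerase genes Prim1, the catalytic primase subunit, was highest (83.3 ± 34.0 TPM) and Pole lowest. Of the clamp and loader, Rfc1, the large loader subunit, was lowest at 21.2 ± 8.86 TPM. Among the nucleotide supply genes Rrm1, the large reductase subunit, was lowest at 70.9 ± 33.4 TPM. Before division by length, its mean of 316 CPM stood above Tyms (244 CPM) and Tk1 (184 CPM). Among chromatin genes Slbp, the histone mRNA binding protein, was highest at 159 ± 34.4 TPM.

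Some of these levels are uncertain because exons overlap other genes and no source used here gives the strand setting of the counting. Exons of 12 genes overlap an exon on the opposite strand, covering 84.2% of exon bases for Fen1, 67.3% for Gins2 and 52.5% for Chaf1a, and exons of 2 (Mcm7 and Rpa1) overlap one on the same strand. Tyms and Pcna also have pseudogene copies in the table, with which reads could be shared.

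CD8 cells carried more of these transcripts than Treg cells under isotype antibody and, for fewer genes, under anti-PD-1. Under isotype antibody all 40 log2 fold changes (CD8 over Treg) were above 0, with a median of 1.12 against -0.06 over all 11680 genes tested, and 20 of the 40 were higher at an adjusted p under 0.05 in edgeR's quasi-likelihood test, with 0 lower. Among all genes tested, 8.21% were called higher in that comparison. A gene is written as called below where edgeR called it, unless DESeq2 is named. In 29 of the 40 genes every CD8 library stood above every Treg library, against 16.6% of all genes. Under anti-PD-1, 10 were higher and 0 lower (3.63% of all genes were called higher), the median was 0.55 against -0.05 over all genes, and the libraries did not overlap for 15 (8.77% of all genes). Under anti-JAML 1 gene, Rpa2, was called (0.728% of all genes were called higher), 39 of 40 changes were above 0, the median was 0.63 against -0.03, and the libraries did not overlap for 8 (5.08% of all genes). DESeq2 called 24 of the 40 higher under isotype (10.9% of all genes it tested), 15 under anti-PD-1 (7.37%) and 7 under anti-JAML (3.59%), the last being Rpa2, Prim2, Rrm2, Rfc5, Dut, Cdc45 and Rfc4. These 3 comparisons share no library, and 32 of the 40 genes had a positive change in all 3.

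**Figure D2:**
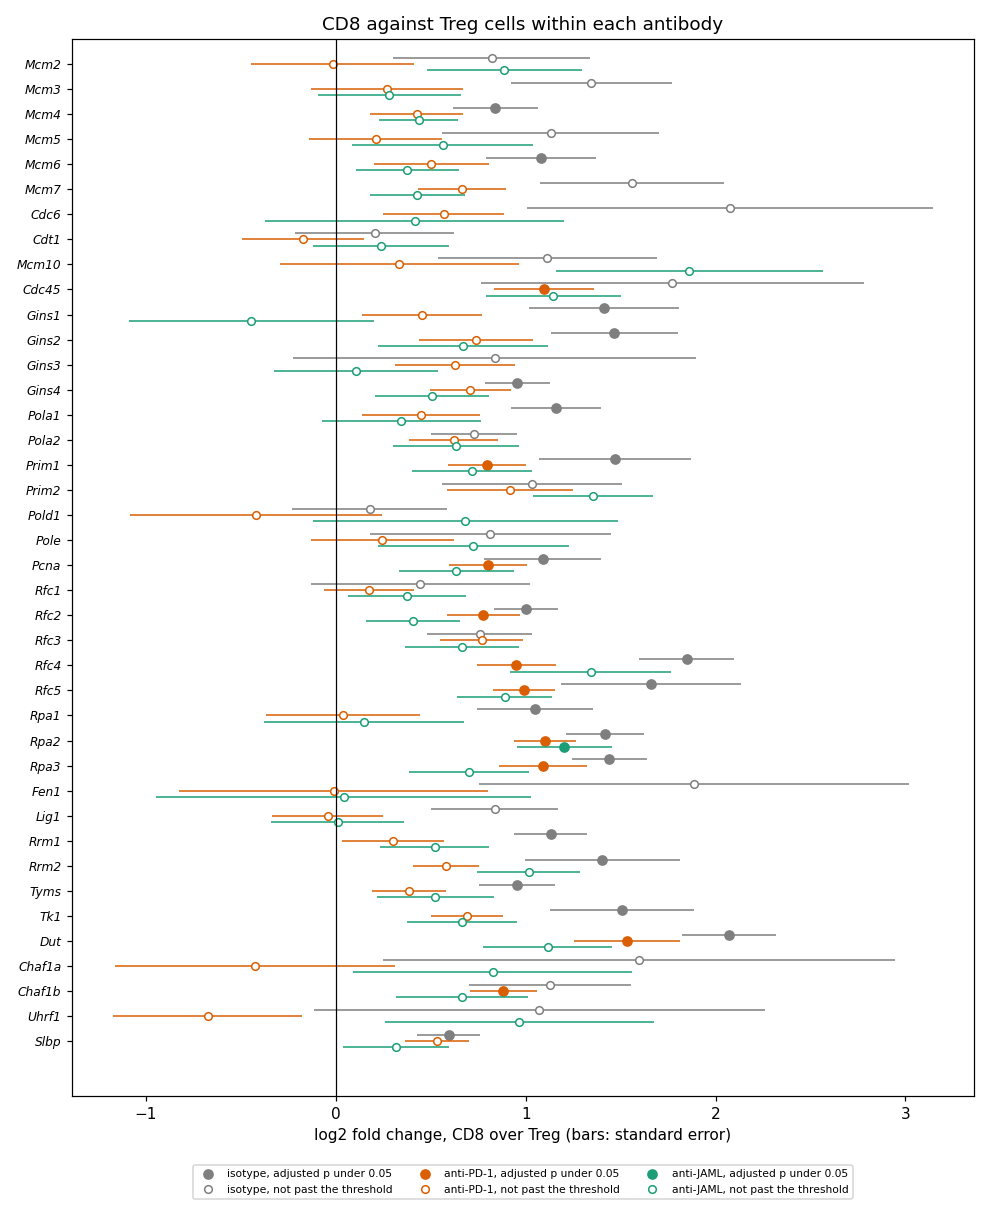
Log2 fold change of each gene, CD8 over Treg, within each antibody (x axis; bars are standard errors; filled points have an adjusted p under 0.05). All isotype points lie above 0, 20 of them filled, against 10 filled points under anti-PD-1 and 1 under anti-JAML.

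Nucleotide supply was the role in which every gene was called under isotype, 5 of 5. Dut, which removes dUTP so that uracil is not built into DNA, had 306, 176, 133 and 158 CPM in the Treg isotype libraries and 886, 803, 920 and 806 CPM in the CD8 isotype libraries. The lowest CD8 library held more than 2 times the highest Treg library, and the log2 fold change was 2.07 ± 0.25 (SE; adjusted p = 0.000984). Under anti-PD-1 its CPM was 428, 220, 174 and 250 in Treg cells and 924, 638, 807 and 752 in CD8 cells (1.53 ± 0.28, adjusted p = 0.0111). Under anti-JAML it was 153, 147, 303 and 196 in Treg cells and 564, 297, 687 and 292 in CD8 cells, with overlapping libraries (1.12 ± 0.34, adjusted p = 0.162).

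Both subunits of ribonucleotide reductase, the enzyme that makes deoxyribonucleotides, were higher in CD8 cells under isotype. Rrm1 had 136, 152, 107 and 206 CPM in Treg and 372, 328, 313 and 367 CPM in CD8 isotype libraries (log2 fold change 1.13 ± 0.19, adjusted p = 0.00503). Rrm2 had 313, 149, 65.4 and 291 CPM in Treg and 573, 553, 514 and 622 CPM in CD8 isotype libraries (1.40 ± 0.41, adjusted p = 0.0473). The Treg spread was the wider for both, and Treg library 3 had the lowest value of each. Tyms, thymidylate synthase, had 244, 164, 120 and 176 CPM against 378, 332, 376 and 347 (0.96 ± 0.20, adjusted p = 0.0126), and Tk1, thymidine kinase, 91.0 ± 43.4 against 271 ± 26.2 CPM (1.51 ± 0.38, adjusted p = 0.0265). Under anti-PD-1 and under anti-JAML, Rrm1, Rrm2, Tyms and Tk1 were not called by edgeR, with log2 fold changes between 0.30 and 0.69 and between 0.52 and 1.01. DESeq2 called Rrm2 (adjusted p = 0.0187) and Tk1 (adjusted p = 0.00963) under anti-PD-1 and Rrm2 (adjusted p = 0.00805) under anti-JAML.

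Of the clamp and its loader, 4 of 6 genes were called under isotype and 4 of 6 under anti-PD-1, and by edgeR they were the same 4 genes: Pcna, Rfc2, Rfc4 and Rfc5. Pcna had 604, 232, 213 and 315 CPM in Treg and 863, 730, 736 and 715 CPM in CD8 isotype libraries (1.09 ± 0.31, adjusted p = 0.0424). Under anti-PD-1 it had 509, 326, 362 and 337 CPM in Treg and 781, 513, 692 and 697 CPM in CD8 libraries (0.80 ± 0.21, adjusted p = 0.0432). In both cases the CD8 libraries lay above the Treg libraries, by a narrow margin under anti-PD-1. Rfc4, a small subunit of the loader, had 99.9, 67.6, 45.3 and 53.6 CPM in Treg and 291, 244, 262 and 211 CPM in CD8 isotype libraries (1.85 ± 0.25, adjusted p = 0.0019), and 151, 84.1, 114 and 109 against 251, 186, 239 and 213 under anti-PD-1 (0.95 ± 0.21, adjusted p = 0.0236). Rfc5 had log2 fold changes of 1.66 ± 0.47 (adjusted p = 0.0443) under isotype, 0.99 ± 0.16 (adjusted p = 0.0066) under anti-PD-1 and 0.89 ± 0.25 (adjusted p = 0.126) under anti-JAML, and Rfc2 of 1.00 ± 0.17 (adjusted p = 0.00503), 0.78 ± 0.19 (adjusted p = 0.0371) and 0.41.

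Rpa2 was the 1 gene that edgeR called in all 3 population comparisons. DESeq2 called 5 in all 3 (Dut, Rfc4, Rfc5, Rpa2 and Rrm2). Its CPM in Treg libraries was 182, 94.2, 133 and 106 under isotype, 195, 196, 194 and 160 under anti-PD-1 and 103, 94.2, 170 and 81.4 under anti-JAML. In CD8 libraries it was 387, 376, 347 and 334 under isotype, 459, 425, 346 and 377 under anti-PD-1 and 302, 231, 311 and 251 under anti-JAML. No CD8 library reached down to any Treg library. The log2 fold changes were 1.42 ± 0.21 (adjusted p = 0.00258), 1.10 ± 0.16 (adjusted p = 0.00411) and 1.20 ± 0.25 (adjusted p = 0.04). Rpa3 was called under isotype (1.44 ± 0.20, adjusted p = 0.00193) and under anti-PD-1 (1.09 ± 0.23, adjusted p = 0.0204), and Rpa1, the large subunit, under isotype (1.05 ± 0.31, adjusted p = 0.0486). For Rpa1 the change under anti-PD-1 was 0.04.

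Of the 6 polymerase genes 2 were called under isotype, Prim1 (1.47 ± 0.40, adjusted p = 0.037) and Pola1, the catalytic subunit of the priming polymerase (1.16 ± 0.24, adjusted p = 0.0112; 34.0 ± 7.44 CPM in Treg and 79.6 ± 15.8 in CD8). Prim1 was called again under anti-PD-1 (0.80 ± 0.20, adjusted p = 0.0424). Pold1, the catalytic subunit of the lagging-strand polymerase, was called in none of the 3 population comparisons: its CD8 to Treg change was 0.18 ± 0.41 under isotype, -0.42 ± 0.66 under anti-PD-1 and 0.68 ± 0.80 under anti-JAML.

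Of the helicase and its activators, Mcm4 (0.84 ± 0.22, adjusted p = 0.0333) and Mcm6 (1.08 ± 0.29, adjusted p = 0.0339) were called under isotype by edgeR, 2 of 6 MCM subunits, and DESeq2 also called Mcm3 (adjusted p = 0.0121) and Mcm7 (adjusted p = 0.00918), 4 of 6. Of the 8 licensing genes 3 were, all of the GINS complex: Gins4 (0.96 ± 0.17, adjusted p = 0.00623), Gins2 (1.47 ± 0.34, adjusted p = 0.0179) and Gins1 (1.41 ± 0.39, adjusted p = 0.0403). Under anti-PD-1 0 MCM subunits were called by edgeR, with 1 at an unadjusted p under 0.05 and 0 by DESeq2, and Cdc45 was (69.8 ± 19.7 CPM in Treg, 150 ± 38.0 in CD8; 1.10 ± 0.26, adjusted p = 0.0337).

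Cdc6 and Cdt1, which load the helicase together, were called in no population comparison. Cdc6 had 26.3, 5.52, 0 and 23.8 CPM in Treg isotype and 67, 64.2, 58.4 and 55 CPM in CD8 isotype libraries. The CD8 libraries lay above all Treg libraries, yet the change of 2.07 ± 1.07 was not called (adjusted p = 0.251), and the 0 counts in Treg library 3 allow a level of up to 0.178 CPM (3 counts; counting error only). Cdt1, whose protein is destroyed once S phase begins, had 12.6, 44.9, 15.4 and 39.7 CPM against 33.6, 34, 32.3 and 35.8. The groups overlapped, and its change was 0.20 ± 0.42 under isotype, -0.17 ± 0.32 under anti-PD-1 and 0.24 ± 0.36 under anti-JAML.

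Of the chromatin and histone supply genes, Slbp was called under isotype (427, 335, 262 and 294 CPM in Treg, 523, 575, 537 and 454 in CD8; 0.59 ± 0.17, adjusted p = 0.0407). Chaf1b, the middle subunit of CAF-1, was called under anti-PD-1, with 110, 95.7, 96.7 and 77.8 CPM in Treg and 168, 186, 152 and 198 in CD8 libraries (0.88 ± 0.18, adjusted p = 0.0159). Uhrf1, which brings DNA methylation back to new strands, was called in none, with 32.7, 0, 4.33 and 54.5 CPM in Treg isotype and 43.3, 52.7, 51.4 and 52.6 in CD8 isotype libraries. The CD8 libraries were within a narrow range while the Treg libraries spread from 0 to above them (1.07 ± 1.19, adjusted p = 0.64).

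Of the 20 genes called under isotype, 8 were also called under anti-PD-1 (Dut, Pcna, Prim1, Rfc2, Rfc4, Rfc5, Rpa2 and Rpa3), which is 40% of the first list and 80% of the second. By edgeR, Cdc45 and Chaf1b were called under anti-PD-1 and not under isotype, while DESeq2 called Chaf1b under isotype too (1.09, adjusted p = 0.0476). Of the genes with a promoter window, 2 of 12 with the E2F word and 13 of 21 without it were called under isotype, with median changes of 1.08 and 1.40. The split rests on exact spellings of the word and does not sort the genes by control through E2F. The isotype count of 20 was 10 without CD8 library 1, 2 or 4 or Treg library 2, 12 without CD8 library 3, 13 without Treg library 3, 17 without Treg library 4 and 21 without Treg library 1. With all 8 libraries it was 7 when the model held the count of detected genes. Under anti-PD-1 the 10 became 4 without CD8 library 1 or 4 or Treg library 2 or 3, 3 without Treg library 4, 5 without CD8 library 3, 16 without Treg library 1 and 15 without Treg libraries 1 and 4, which held macrophage transcripts. Under anti-JAML the single call was lost without CD8 library 1, 3 or 4 or Treg library 1, 2 or 4, and 2 genes were called without CD8 library 2 (Rpa2 and Cdc45) or Treg library 3 (Rpa2 and Rrm2). Without CD8 anti-JAML libraries 2 and 4 together the 1 call was Dut (1.57) and not Rpa2.

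**Figure D3:**
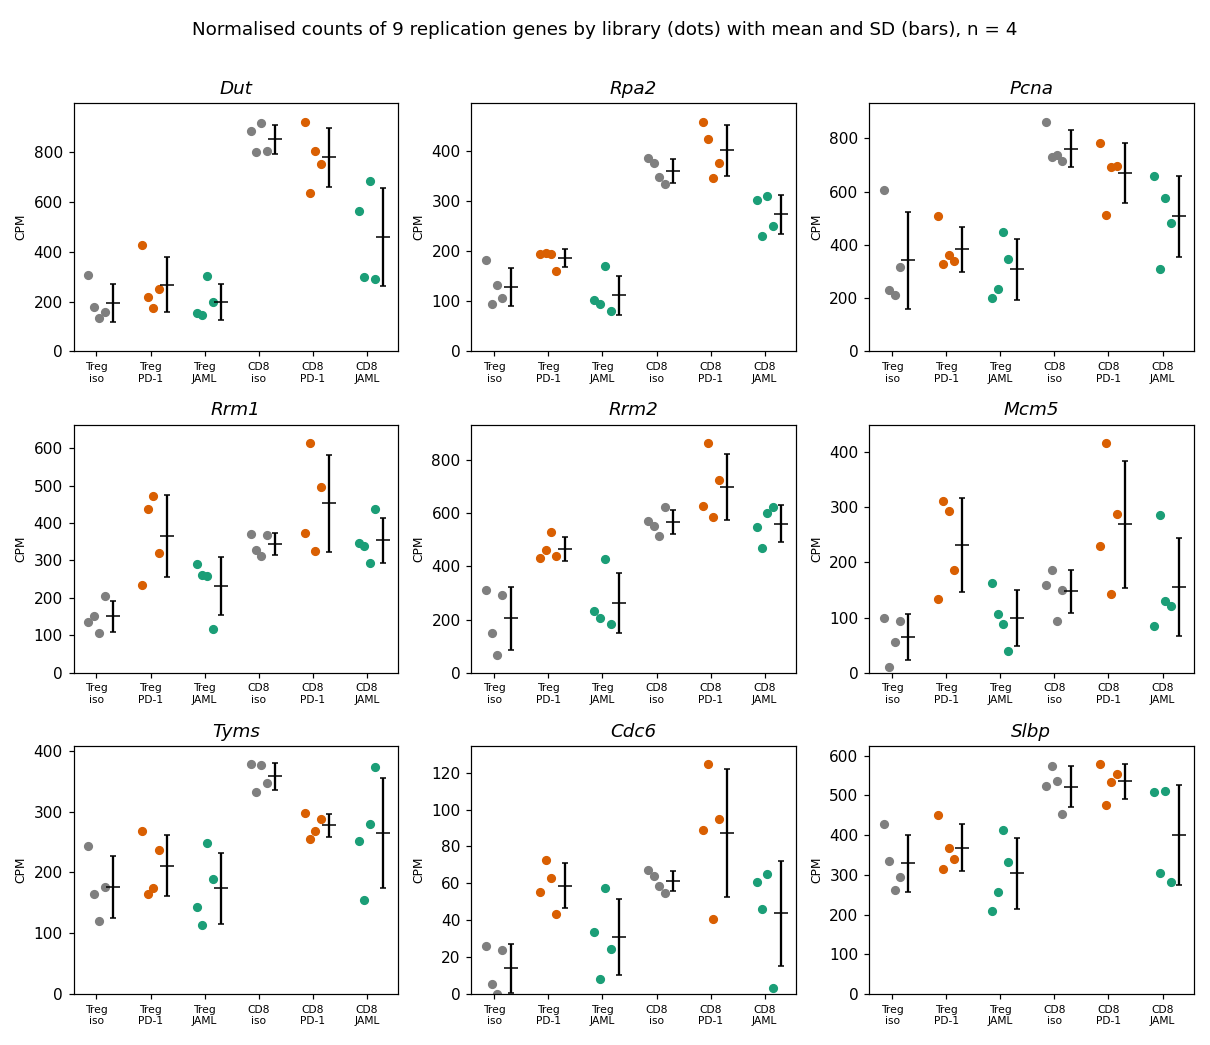
CPM (y axis, from 0) of 9 replication genes in each library (dots, replicates 1 to 4 from left to right) with the mean and SD of 4 libraries, by cell population and antibody. Rpa2 separates CD8 from Treg libraries under all 3 antibodies, while Cdc6 and Mcm5 overlap between populations under anti-PD-1 and anti-JAML.

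The rest of the proliferation programme was examined with 4 further lists. Among all genes tested, 8.21% were called higher in CD8 cells under isotype, 3.63% under anti-PD-1 and 0.728% under anti-JAML. Of other replication factors, 12 of 40 tested were higher in CD8 cells under isotype and 0 lower, with a median of 1.05. Among them were Rnaseh2b (1.98 ± 0.21), Tipin (1.47 ± 0.22), Orc6 (1.92 ± 0.32) and Hells (1.42 ± 0.28). Under anti-PD-1, 5 of 41 were higher (Orc6, Rnaseh2b, Hells, Pole3 and Orc3) and 0 lower. Of 25 mitosis genes 17 were higher under isotype, 6 under anti-PD-1 and 0 under anti-JAML (2 at an unadjusted p under 0.05), with 0 lower in each. Cdk1, the mitotic kinase, led them with 1.56 ± 0.13 (adjusted p = 0.000144) under isotype and 0.95 ± 0.17 (adjusted p = 0.0103) under anti-PD-1.

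Among all genes tested, 832 of 11680 were called lower in CD8 cells under isotype, 513 of 12193 under anti-PD-1 and 161 of 11950 under anti-JAML. Regulators of entry into S phase were called in both directions. Under isotype and anti-PD-1 their lower calls were near the share over all genes. Under isotype, 6 of 23 were higher in CD8 cells (Ccne1, Tfdp1, Cdk6, E2f4, Cdk4 and Ccna2) and 2 lower (Ccnd2 and Rbl2). Ccne1, the cyclin of S phase entry, was higher by 2.23 ± 0.34 (adjusted p = 0.003), and Ccnd2, a cyclin of early G1, was lower at -1.22 ± 0.15 (adjusted p = 0.000988). Under anti-PD-1, 5 were higher (Cdk6, E2f4, Cdk4, Ccne1 and Tfdp1) and 1 lower (Ccnd2, -1.30 ± 0.17, adjusted p = 0.00228), and under anti-JAML Rb1, the retinoblastoma protein that holds E2F in check, was the 1 gene called (-2.47 ± 0.52, adjusted p = 0.0425). Of 10 CDK inhibitor and quiescence genes tested under isotype, 0 had a positive change and 4 were lower: Btg1 (-1.84 ± 0.20), Cdkn1b, which encodes the CDK inhibitor p27 (-1.81 ± 0.19, adjusted p = 0.000514; 115 ± 21.4 CPM in Treg and 34.5 ± 4.73 in CD8), Btg2 and Cdkn2d. Under anti-PD-1, Foxo1 and Cdkn1b were lower.

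Mki67, the common proliferation marker, did not share the CD8 to Treg difference at the threshold: its change was 0.98 ± 0.42 under isotype (adjusted p = 0.165), -0.42 ± 0.17 under anti-PD-1 (adjusted p = 0.162) and 0.37 ± 0.22 under anti-JAML (adjusted p = 0.573). It had 56.1 ± 30.3, 146 ± 18.0 and 76.4 ± 8.21 CPM in Treg cells under isotype, anti-PD-1 and anti-JAML, and 116 ± 36.3, 110 ± 12.7 and 105 ± 22.0 CPM in CD8 cells. E2f1 was low throughout, with group means of 1.14 to 9.01 CPM, and was called in no comparison.

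Among the antibody comparisons the median of the 40 genes was farthest from 0 between anti-PD-1 and isotype in Treg cells, without a call in edgeR. All 40 log2 fold changes (anti-PD-1 over isotype) were above 0, with a median of 0.88 against 0.04 over all 12981 genes tested, of which 52.4% were above 0. None of the 40 passed an adjusted p of 0.05 in edgeR (0.0154% of all genes were called higher), and 13 had an unadjusted p under 0.05 in the higher direction (8.34% of all genes), 6 of them the MCM subunits. DESeq2 called 10 of the 40 higher (3.33% of all genes it tested): Rrm1, Lig1, Pold1, Mcm4, Mcm3, Mcm6, Mcm5, Mcm7, Rpa1 and Mcm2. In 7 genes every anti-PD-1 library stood above every isotype library, against 5.15% of all genes. Treg isotype libraries 2 and 3 were low in many genes (38 and 37 of the 40 had a count). Uhrf1 and Chaf1a were at 0 counts in library 2, and Cdc6, Cdc45 and Gins3 in library 3. Counting error alone allows up to 0.134 and 0.178 CPM there, and transcripts lost before sequencing are not covered.

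Rrm1 had the smallest p, with 136, 152, 107 and 206 CPM under isotype and 235, 436, 473 and 319 CPM under anti-PD-1. The groups did not overlap, and the change was 1.28 ± 0.32 (edgeR adjusted p = 0.121). Mcm5 had 99.4, 9.52, 55.3 and 93.8 CPM under isotype and 134, 312, 293 and 187 CPM under anti-PD-1 (1.85 ± 0.60, adjusted p = 0.197), and Mcm4 163 ± 55.0 against 302 ± 62.6 CPM (0.89 ± 0.26, adjusted p = 0.161). Both were without overlap. Mcm2 had 63.3, 12, 51.9 and 115 CPM against 100, 310, 263 and 146, with overlap (1.76 ± 0.58, adjusted p = 0.2), and Rrm2 went from 204 ± 118 to 466 ± 44.5 CPM without overlap (1.19 ± 0.41, adjusted p = 0.211). Lig1, the ligase that joins Okazaki fragments, was at 67.1 ± 31.7 and 161 ± 53.9 CPM (1.26 ± 0.36, adjusted p = 0.158). By role, the median change was 1.56 for MCM subunits, 1.00 for licensing, 1.26 for strand protection, 0.94 for nucleotide supply, 0.60 for polymerases, 0.50 for clamp and loader and 1.41 for chromatin genes.

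Values that moved with this contrast were the number of genes detected, macrophage markers (11.6 to 1118 CPM summed under anti-PD-1, 15.4 to 69.1 under isotype) and the mitochondrial share (2.09% to 4.0% under isotype, 1.20% to 3.38% under anti-PD-1). All 4 T cell markers (Cd3e, Cd3d, Cd3g and Trac) were below 0 at an unadjusted p under 0.05, with a median of -0.69 and 0 called. The median change was 0.58 with genes detected as a covariate and 0.81 without anti-PD-1 libraries 1 and 4, with 0 of the 40 called in either. Leaving out Treg isotype library 4 gave 1 call, Mcm7 (2.26, adjusted p = 0.0205). The part of the mitochondrial share and of the T cell markers in the result was not tested. Mitosis genes had the same sign, 25 of 25 above 0 with 16 at an unadjusted p under 0.05 and 0 called, and Mki67 changed by 1.39 ± 0.35 (adjusted p = 0.121).

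Under anti-JAML, the Treg share of counts in the 40 genes had its mean between those of the other Treg groups. Against isotype, 32 of 40 changes were above 0 with a median of 0.33 (0.02 over all genes) that ran from 0.15 without Treg isotype library 3 to 0.47 without Treg isotype library 4, and none of the 40 was called (0% of all genes) or had an unadjusted p under 0.05 (3.63% of all genes in the higher direction). Mcm7 had the smallest p (72.3 ± 61.0 CPM under isotype, 140 ± 28.1 under anti-JAML; 0.94 ± 0.45, adjusted p = 0.961). Rrm1 (0.62 ± 0.31) and Mcm6 (0.62 ± 0.32) followed. Against anti-PD-1, 38 of 40 changes were below 0 with a median of -0.55 (-0.03 over all genes), 0 were called by edgeR or DESeq2 (0% of all genes by edgeR), and 4 had an unadjusted p under 0.05 (2.8% of all genes were lower by that measure): Rpa2 (-0.74 ± 0.25, adjusted p = 0.765), Pold1 (-1.72 ± 0.62), Lig1 (-0.99 ± 0.36) and Mcm4 (-0.62 ± 0.26). The anti-JAML libraries lay below the anti-PD-1 libraries for 4 genes (Lig1, Mcm4, Rrm2 and Tk1), against 2.3% of all genes. For 2 of them the margin was close to nil. The highest anti-JAML and lowest anti-PD-1 libraries had 94.07 and 94.19 CPM for Lig1 and 256.4 and 256.6 CPM for Mcm4. All 7 macrophage and monocyte markers tested were below 0 in this contrast (median -3.60, 1 at an unadjusted p under 0.05) and all 4 T cell markers above 0 (median 0.28, 1 at an unadjusted p under 0.05), and their part in the result was not tested. DESeq2 also called 0 of the 40 between anti-JAML and isotype. The comparisons within a population share libraries in pairs and so are not independent.

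**Figure D4:**
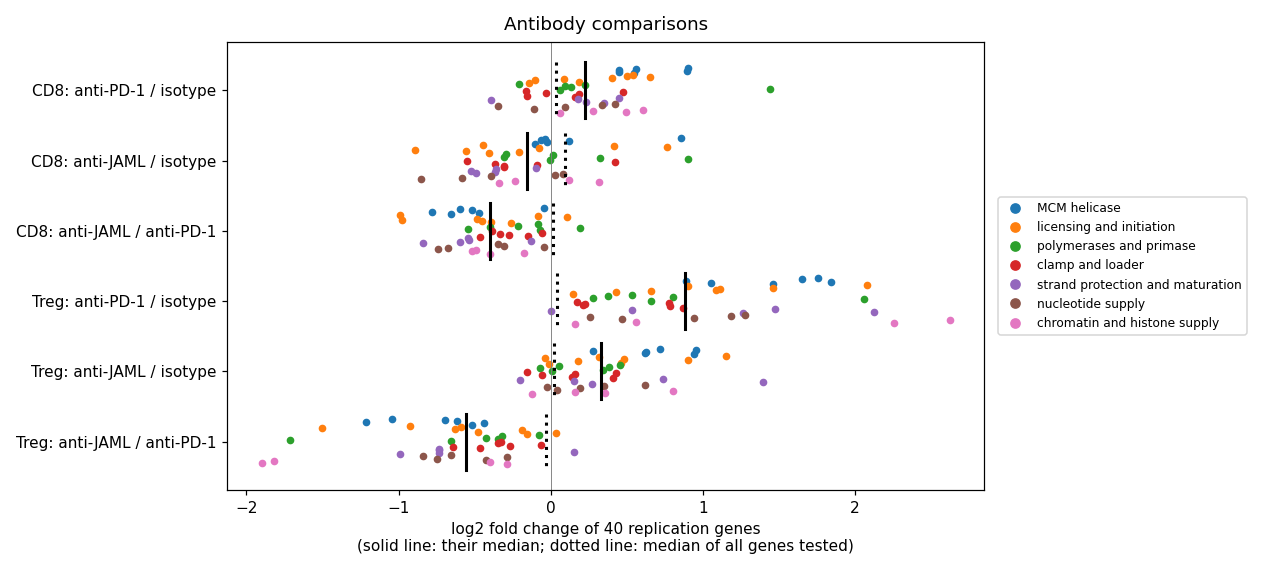
Log2 fold changes of the 40 genes in the 6 antibody comparisons within a population (dots are genes, by role; the solid line is their median and the dotted line the median of all genes tested). The largest median, 0.88, is that of Treg anti-PD-1 over isotype, where all 40 dots are above 0.

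In CD8 cells anti-PD-1 and isotype differed less. Of the 40 changes 31 were above 0, with a median of 0.23 (0.04 over all genes) that became -0.046 with genes detected as a covariate. Neither edgeR nor DESeq2 called any of the 40 (0% of all genes by edgeR), and 4 MCM subunits had an unadjusted p under 0.05 (4.06% of all genes were higher by that measure): Mcm7 (222 ± 42.2 CPM under isotype, 319 ± 51.6 under anti-PD-1; 0.55 ± 0.22, adjusted p = 0.865), Mcm2 (0.90 ± 0.38), Mcm5 (0.90 ± 0.39) and Mcm4 (0.45 ± 0.20). Mcm5 had 159, 187, 93.5 and 151 CPM under isotype and 229, 417, 142 and 288 under anti-PD-1, so that anti-PD-1 library 3 lay within the isotype range. For 0 genes did the anti-PD-1 libraries all stand above the isotype libraries (3.49% of all genes), and for 2, Rpa3 and Tyms, they all stood below (3.36% of all genes). Rpa3 had 218 ± 22.1 against 164 ± 29.6 CPM (-0.39 ± 0.24), and Tyms 358 ± 22.5 against 277 ± 19.5 CPM (-0.35 ± 0.21).

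Between anti-JAML and isotype CD8 libraries no gene of the 40 was called. Of the 40 changes 28 were below 0, with a median of -0.16 against 0.09 over all genes. That median ran from -0.27 without CD8 isotype library 3 to -0.051 without CD8 anti-JAML library 4, and edgeR and DESeq2 each called 0 (0% of all genes by edgeR). An unadjusted p under 0.05 in the lower direction was reached by 6 genes (4.87% of all genes), Dut, Tk1, Pcna, Rpa2, Gins2 and Rpa3, and for the same 6 every anti-JAML library stood below every isotype library (6.29% of all genes). Dut had 886, 803, 920 and 806 CPM under isotype and 564, 297, 687 and 292 CPM under anti-JAML (-0.85 ± 0.25, adjusted p = 0.303). Libraries 2 and 4, the lower pair, were those with macrophage transcripts and with the high mitochondrial share. Tk1 had 271 ± 26.2 and 176 ± 46.5 CPM (-0.58 ± 0.20, adjusted p = 0.349), and Pcna 863, 730, 736 and 715 against 658, 307, 577 and 483 CPM (-0.55 ± 0.21, adjusted p = 0.367). Mcm2 had an unadjusted p under 0.05 in the higher direction (6.85% of all genes; 111 ± 19.8 and 196 ± 85.3 CPM; 0.86 ± 0.38, adjusted p = 0.411), with overlap.

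Against anti-PD-1, anti-JAML CD8 libraries had 38 of 40 changes below 0 with a median of -0.40 (0.02 over all genes), which was -0.17 with genes detected as a covariate and -0.26 without CD8 anti-PD-1 library 2. All 3 erythroid markers tested were above 0 in this contrast, each at an unadjusted p under 0.05 (median 6.75), with summed levels of 0 to 491 CPM under anti-JAML and 0 to 6.86 under anti-PD-1. All 4 melanoma markers were above 0 as well (median 2.02, 0 at an unadjusted p under 0.05), and the part of either list in the result was not tested. None of the 40 was called by edgeR (0.00791% of all genes were called lower) and 8 had an unadjusted p under 0.05 (4.89% of all genes). Rpa2 had 459, 425, 346 and 377 CPM under anti-PD-1 and 302, 231, 311 and 251 CPM under anti-JAML, without overlap (-0.54 ± 0.15, adjusted p = 0.21), and was the 1 gene of the 40 that DESeq2 called (adjusted p = 0.0122; 1.22% of all genes it tested were lower). Tk1 (-0.67 ± 0.20) and Rfc2 (-0.34 ± 0.17) also did not overlap, 3 genes in all against 3.32% of all genes, and Mcm7 went from 319 ± 51.6 to 200 ± 51.6 CPM (-0.66 ± 0.22, adjusted p = 0.304). In the same contrast 25 of 25 mitosis genes were below 0, 16 of them at an unadjusted p under 0.05 and 0 called, while 8 of 11 CDK inhibitor and quiescence genes were above 0. The anti-JAML to isotype contrast in CD8 cells had 22 of 25 mitosis genes below 0, and Btg1, an inhibitor of proliferation, at 1.21 ± 0.24 (adjusted p = 0.185).

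Whether an antibody acted differently in the populations was tested with an interaction term (the change in CD8 minus the change in Treg cells). For anti-PD-1 all 40 interaction values were below 0, with a median of -0.73 against -0.07 over all 14591 genes tested, of which 46.3% were above 0. None of the 40 passed an adjusted p of 0.05 in edgeR or DESeq2 (0% of all genes by edgeR) and 2 had an unadjusted p under 0.05 (4.09% of all genes in that direction): Rrm1 (-0.89 ± 0.37, adjusted p = 0.694) and Rfc4 (-0.96 ± 0.46, adjusted p = 0.787); Tk1 followed (-0.88 ± 0.44). For anti-JAML 35 of 40 were below 0, with a median of -0.56 against -0.04, which was -0.36 without Treg anti-JAML library 3 or Treg isotype library 3. None was called by edgeR or DESeq2 (0% of all genes by edgeR), and 3 had an unadjusted p under 0.05 (4.5% of all genes in that direction): Gins1 (-1.84 ± 0.70, adjusted p = 0.44), Mcm7 (-1.10 ± 0.51, adjusted p = 0.572) and Dut (-0.94 ± 0.44, adjusted p = 0.574). Without Treg isotype library 4, 1 gene, Mcm7, was called for anti-JAML (-1.87, adjusted p = 0.0476). Both interactions use the same isotype libraries, in which Treg levels were lowest and most spread.

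Library-to-library spread of the 40 genes was itself unequal. The median coefficient of variation of a gene within a group was 13.5% in CD8 isotype, 21.9% in CD8 anti-PD-1, 28.6% in Treg anti-PD-1, 34.1% in CD8 anti-JAML, 34.5% in Treg anti-JAML and 53.2% in Treg isotype. Across the 24 libraries the 40 genes varied together: 765 of 780 pairs had a Pearson correlation of log2 CPM above 0, with a median of 0.56, and 0.25 after group means were removed. These points share library, depth and scaling. Rrm2 followed the mean of the other genes most closely (r = 0.96, n = 24), and Pold1 least (0.32), with Cdt1 at 0.44. Among the closest pairs were Tyms with Rfc4 (0.94), Mcm6 with Mcm3 (0.93), Dut with Pcna (0.93), Mcm2 with Mcm5 (0.92) and Gins3 with Cdc45 (0.92), and the lowest was Tyms with Pold1 (-0.33).

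**Figure D5:**
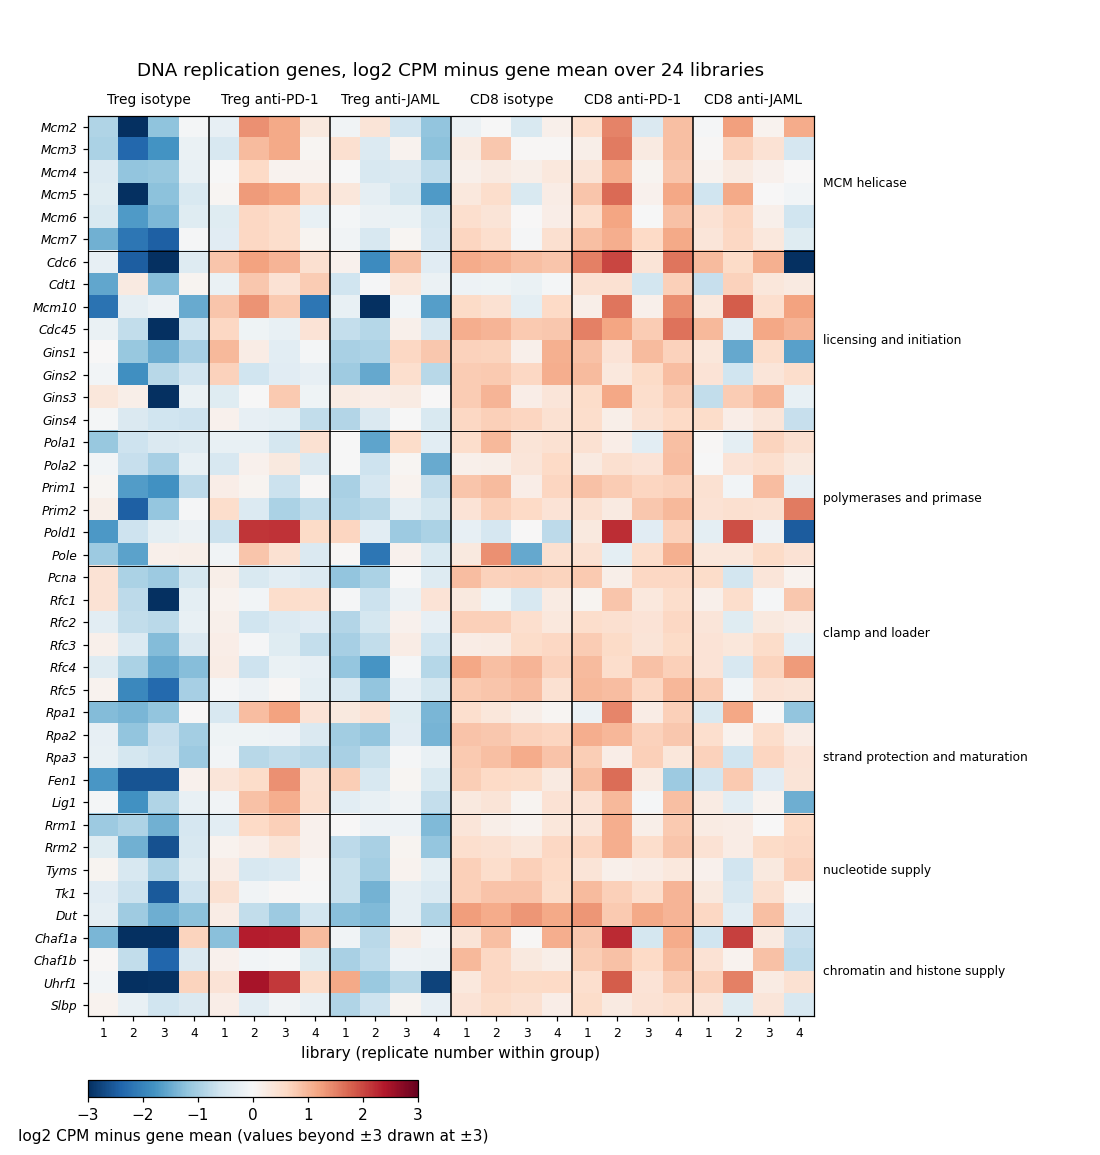
Log2 CPM of the 40 genes (rows, by role) in the 24 libraries (columns, by group and replicate), minus each gene's mean over the 24 libraries; blue is below and red above that mean, with values beyond 3 drawn at 3. Treg isotype libraries 2 and 3 are mostly blue, and Pold1, Chaf1a and Uhrf1 stand out in 4 libraries.

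A few genes ran high together in particular libraries rather than groups. Pold1 had 118 and 120 CPM in Treg anti-PD-1 libraries 2 and 3, 124 in CD8 anti-PD-1 library 2 and 102 in CD8 anti-JAML library 2, and at most 43.6 CPM in the other 20 libraries. Chaf1a had 48.9, 48.5, 45.4 and 39.9 CPM in the same 4 libraries and at most 20.6 CPM in the others, and Uhrf1 191, 151, 122 and 99.2 CPM against at most 76.3. These 3 genes, with Rpa1, Mcm2 and Mcm5, were singled out after their values were seen. The 4 libraries came from 3 groups, and 3 of them were given anti-PD-1. All but Treg anti-PD-1 library 3 also carry replicate number 2. Over genes with group means removed, those with number 2 correlated with each other at 0.44, 0.37 and 0.37. With the other libraries of number 2 they correlated at -0.073 to 0.20. The part of the antibody and of the replicate number was not tested.

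Outside the 40 genes, those whose log2 CPM followed their mean most closely over the 24 libraries, among 7689 candidates with a mean of at least 10 CPM, included Phgdh, the first enzyme of serine synthesis (r = 0.97), Phb2, a mitochondrial prohibitin (0.96), Fignl1 (0.95) and Hells, a chromatin remodeller (0.95). The mean of the 40 genes had an r of 0.94 with the mean of the 25 mitosis genes, 0.80 with Mki67, 0.65 with the number of genes detected and -0.42 with total counts (n = 24 libraries in each case, described without a test).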

How the data were processed

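Gene counts and TPM values of 24 Smart-seq2 libraries were used as deposited by the authors. The submitters' processing notes name fastp 0.20.1, STAR 2.7.3a, SAMtools, deepTools 3.3.1 and build mm10, without order or role. How reads were counted (tool, strand and annotation) is not given in the sources used here. The deposited counts are whole numbers per gene, and the deposited TPM values are scaled by gene length and library total, and were used only to set levels of genes side by side.

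Counts were tested with edgeR 4.0.16 (limma 3.58.1, R 4.3.3): filterByExpr (minimum count 10, minimum total 15), TMM scaling, robust quasi-likelihood fit and test, two-sided, Benjamini-Hochberg adjustment over all genes tested, threshold 0.05. Antibody comparisons were fitted on the 12 libraries of a population, population comparisons on the 8 libraries of an antibody and interactions on all 24. Log2 CPM used a prior count of 2. The fit was tested on simulated counts, drawn independently for each gene and library. They hold no shift shared by many genes of a library, so the fit was not tested for that case. DESeq2 1.42.0, other size factors, no low-count filter, a replicate block, genes detected as a covariate and leaving out each library were tried. Leaving out Treg anti-PD-1 libraries 1 and 4 was chosen after seeing the data. Library totals of 11170918 to 22556460 counts set the counting error only, and intervals at 0 counts cover no other error.

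The 40 genes and the further lists (41 other replication factors, 24 G1/S regulators, 12 CDK inhibitor and quiescence genes, 25 mitosis genes, and cell type markers) were chosen with earlier results of these data known. Genes named with values were those called in any comparison, the 5 smallest p in each population comparison and 3 in each other, 9 fixed genes (Mcm2, Mcm5, Pcna, Rrm2, Tyms, Cdc6, Cdt1, Uhrf1 and Slbp), and the highest and lowest TPM of each role; others were named after their values were seen. Exon overlaps were read from GENCODE positions, with all 40 genes matched by ID and version. Promoters are RefSeq windows on GRCm38.p6; Mcm4, Rfc2, Prim2, Gins4, Gins1, Gins2 and Pole had no entry in the table used. Some genes of the further lists and of the most alike genes are not reported here.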

Additional observations from a re-analysis of the deposited data

Results flagged for a closer look

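Within groups of 4 libraries, 19 of the 40 genes were examined for a library far from the rest, 114 groups in all. In 5 the gap to the nearest library, divided by the group's range, exceeded the 95% critical value of Dixon's test. Chance gives about 1 in 20. Pcna was high in CD8 isotype library 1 (863 CPM, next 736). Rpa2 was low in Treg anti-PD-1 library 4 (160 CPM, next 194), and Rpa3 was high in Treg anti-PD-1 library 1 (108 CPM, next 68.5); both libraries held macrophage transcripts. Uhrf1 was high in CD8 anti-PD-1 library 2 (122 CPM, next 58.4) and low in CD8 isotype library 1 (43.3 CPM, next 51.4).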

How the results depend on the processing

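DESeq2 called 10 of the 40 genes between Treg anti-PD-1 and isotype (edgeR 0), 7 between CD8 and Treg cells under anti-JAML (edgeR 1) and 1 between CD8 anti-JAML and anti-PD-1 (edgeR 0). Adding the number of genes detected to the model left 7 calls between CD8 and Treg cells under isotype (20 without it), and the medians were -0.17 for CD8 anti-JAML against anti-PD-1 and -0.046 for CD8 anti-PD-1 against isotype. Leaving out 1 library at a time gave 10 to 21 calls between the populations under isotype, 3 to 16 under anti-PD-1 and 0 to 2 under anti-JAML. It gave 0 to 1 for Treg anti-PD-1 against isotype and for the anti-JAML interaction, and 0 in the other 6 comparisons. Replicate numbers were not taken to pair libraries in the main tests, because no source used here says what the numbers mean. After group means were removed, 4 of 12 same-numbered pairs within an antibody had a correlation over 0.1. The median was 0.079 for the same number and -0.010 for other numbers. Among 4 candidates each, 13 of 24 libraries correlated best with their own number. These matches rest on shared correlations and are not independent, and no test against random matching was made. Whether same-numbered libraries shared a mouse or a batch was not tested. A replicate block gave 15 calls under isotype, 12 under anti-PD-1 and 0 under anti-JAML between the populations. Changes of sign were seen in genes that were not called. Between the populations, Cdt1 was at -0.22 (covariate) under isotype and ran from -0.036 (without Treg library 1) to 0.53 as single libraries were left out. It ran from -0.36 to 0.040 (without CD8 library 3) under anti-PD-1 and was at -0.079 under anti-JAML (without CD8 libraries 2 and 4). Under anti-PD-1, Mcm2 was at 0.07, 0.24, 0.26 and 0.13 (without CD8 library 1, CD8 library 3, Treg library 2 and Treg library 3), and at -0.35 without CD8 library 2. Mcm5 ran from -0.075 (without CD8 library 2) to 0.43 (without CD8 library 3) and was at -0.17 without Treg libraries 1 and 4. Rrm1 between Treg anti-JAML and isotype was at -0.12 with the covariate. The cause was not tested. Fewer than 400 cells and 4 libraries a group limit the precision.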
